A study of Mus musculus with 6 samples.

Results

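The genes described here are 10 mouse genes that mark memory and effector T cells, taken by an exact match of the gene symbol: Cd44, Il2rb, Cxcr3, Tbx21, Eomes, Ifng, Ccl5, Nkg7, Id2 and S100a4. They are 10 of the 46983 genes counted. The libraries were made from rRNA-depleted total RNA of naïve CD4 T cells, which were sorted from lymph nodes of male mice by gating on live cells with TCRb and CD4 on the surface and without CD44, among other gates. The 3 control libraries came from mice with the genotype Rnmt fl/fl CD4cre -, and the 3 Rnmt cKO libraries from mice with the genotype Rnmt fl/fl CD4cre +, so both groups carried floxed Rnmt and only the second carried Cre. RNMT methylates the guanosine cap of RNA polymerase II transcripts. The Cre transgene is driven by Cd4 regulatory sequence, which is active from the double positive thymocyte onwards, so the deletion begins in the thymus, and an effect of the transgene and an effect of the deletion cannot be told apart in this design. The study gives as many mice as libraries for each group in this sequencing, while the labels number the libraries without naming animals.

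Naïve T cells circulate through lymph nodes and keep effector genes silent until antigen is met. Activation and memory bring a shared programme: the T-box factors T-bet and Eomes and the helix-loop-helix inhibitor Id2 promote effector and memory differentiation, CD122 (Il2rb) passes on the IL-2 and IL-15 signals that memory cells live on, CXCR3 steers cells to inflamed tissue, and interferon gamma, CCL5 and NKG7 belong to the effector output. Some naïve cells acquire part of this programme without foreign antigen, and such virtual memory or memory-like cells are classically described by high CD44, CD122 and Eomes, mostly among CD8 cells. High surface CD44 is the usual sign of an antigen-experienced mouse T cell, and here the gate removed such cells. The comparison asks whether cells inside the naïve gate carried more or less of this programme when Rnmt was deleted.

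The genome around the start sites of Cd44, Eomes and Id2, which differed, and of Nkg7, which was below the filter, is shown first. The upstream windows come from RefSeq on GRCm38.p6, and were searched over the 250 bases before the annotated start. The sequences printed were cut back where an exon of the same gene lies there in GENCODE, the annotation used for gene positions. A window was found for 8 of the 10 genes, and Il2rb and Ccl5 had no entry. Capitals mark matches on either strand to an E-box (CANNTG, the element bound by the E proteins that Id2 inhibits), to the T-box half-site GGTGTGA or to the STAT element TTCNNNGAA. No match overlaps another in the windows printed. The windows of Cd44 and Eomes hold no match, and the window of Id2 holds an E-box that starts 196 bases before the RefSeq start, and its printed stretch is intronic in a longer GENCODE transcript of Id2. For Nkg7 only a 30-base stretch is printed, since it holds the single T-box half-site found, 13 to 7 bases before the RefSeq start. That stretch lies in the 5′ UTR of the first exon of a GENCODE transcript of Nkg7 that begins earlier.
Cd44, chr2:102901666-102901915, minus strand: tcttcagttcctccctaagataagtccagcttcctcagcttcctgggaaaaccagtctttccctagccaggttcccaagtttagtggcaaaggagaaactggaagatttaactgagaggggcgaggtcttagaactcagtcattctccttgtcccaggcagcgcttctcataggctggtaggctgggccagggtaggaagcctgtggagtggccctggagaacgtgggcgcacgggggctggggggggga
Eomes, chr9:118477939-118478188, plus strand: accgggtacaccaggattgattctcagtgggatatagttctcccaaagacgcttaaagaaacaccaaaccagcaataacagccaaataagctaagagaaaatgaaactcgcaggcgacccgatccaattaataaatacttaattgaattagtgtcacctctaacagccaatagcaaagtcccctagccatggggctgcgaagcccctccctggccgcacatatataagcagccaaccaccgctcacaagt
Id2, chr12:25096254-25096342, minus strand: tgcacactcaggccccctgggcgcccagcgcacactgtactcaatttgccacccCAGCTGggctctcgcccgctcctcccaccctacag
Nkg7, chr7:43437108-43437137, plus strand: agggagggggtagggaaGGTGTGAgaagaa

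An E-box was found in the windows of 5 of the 8 genes, a T-box half-site in 1 and a STAT element in 2. Of all 32851 RefSeq windows searched over the same 250 bases, 66.22% hold an E-box, 3.33% the T-box half-site and 7.02% the STAT element. These matches are letters in a window and say nothing of binding.

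The libraries held between 8873413 and 11277764 sense counts in genes. Rnmt itself held 438, 588 and 524 counts in the control libraries, against 397, 444 and 297 in the Rnmt cKO libraries, a log2 fold change (Rnmt cKO over control) of -0.67 (SE 0.20, edgeR adjusted p = 0.00035). Only an exon is removed by Cre, so counts over the whole gene do not measure intact transcript. The share of uniquely mapped reads in no gene ran from 31.8% to 47.9% and did not follow the groups, with control 1, control 2 and Rnmt cKO 3 at the low end. The 9 CD4 T cell markers were present in every library, at a summed level of 3656 to 4174 CPM in controls, against 3670 to 4355 CPM in Rnmt cKO libraries. All 9 were tested, and 1 was called higher (Cd4) and 1 lower (Cd3g, log2 fold change -0.44, edgeR adjusted p = 0.0132). The Cd3g call was lost without control replicate 1 or Rnmt cKO replicate 1 or 2 (adjusted p between 0.115 and 0.13), and without Rnmt cKO replicate 3, 2 markers were called lower. CPM are counts scaled to a common library size with TMM factors. Values of single libraries are listed in the order of replicates 1, 2 and 3.

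Of the 10 genes, 4 passed the filter of more than 1 CPM in at least 3 samples and were tested among 12336 genes. Id2, Eomes and Il2rb rose in Rnmt cKO cells, and Cd44 fell. Thus 3 of 4 tested genes were called higher, where 8.0% of all tested genes were called higher, and 1 of 4 lower, where 6.84% of all were called lower. The groups did not overlap for any of the 4, against 16.6% of all tested genes that did not overlap with Rnmt cKO higher and 14.9% with Rnmt cKO lower. The 10 genes were chosen with earlier results of these data known, so these counts and shares are descriptions and not a test of enrichment. Calls are adjusted p-values below 0.05 in the edgeR exact test. Each of the 4 genes was above 1 CPM in all 6 libraries, so none passed through 1 group alone. The other 6 genes, Cxcr3, Tbx21, Ifng, Ccl5, Nkg7 and S100a4, held at most 15 counts in any library. In bulk samples, a change in the number of cells that express a gene and a change in RNA per cell cannot be told apart.

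**Figure D1:**
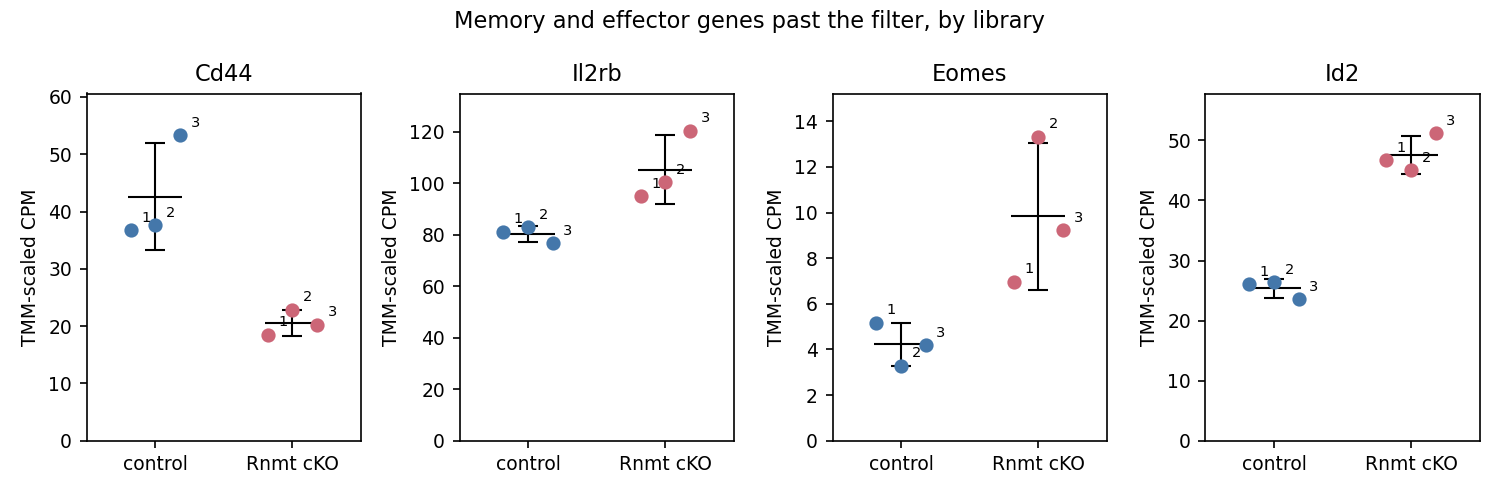
TMM-scaled CPM (vertical axes, linear from 0) of Cd44, Il2rb, Eomes and Id2 in the 3 control and 3 Rnmt cKO libraries. Points are libraries with their replicate numbers, long bars are means and whiskers are SD. The groups do not overlap in any of the 4 panels: Cd44 is lower in Rnmt cKO libraries and the other 3 genes are higher.

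Among the transcription regulators, Id2 was the most evenly changed. It encodes a helix-loop-helix protein without a DNA-binding region, which captures E proteins and is needed for effector and memory T cells to persist. The gene lies on chromosome 12, 25093799 to 25097140, minus strand (mm10). Id2 held 222, 265 and 213 counts in the control libraries, against 442, 534 and 571 in the Rnmt cKO libraries. Every Rnmt cKO library lay well above every control. Control cells averaged 25.4 ± 1.60 CPM, and Rnmt cKO cells, at 47.6 ± 3.17 CPM, held 1.88-fold more (SD, n = 3 per group). The log2 fold change was 0.91 (SE 0.08) with an edgeR adjusted p of 4.53e-13.

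Eomes rose by the largest factor of the 3. It encodes the T-box factor Eomesodermin, which drives Il2rb and cytotoxic genes in CD8 memory and NK cells and is little used by resting CD4 cells. The gene lies on chromosome 9, 118478212 to 118486132, plus strand (mm10). Eomes held 44, 33 and 38 counts in the control libraries, against 66, 158 and 103 in the Rnmt cKO libraries. Rnmt cKO 2 stood highest, and Rnmt cKO 1 came nearest to the controls. Control cells averaged 4.22 ± 0.94 CPM, and Rnmt cKO cells, at 9.85 ± 3.22 CPM, held 2.35-fold more (SD, n = 3 per group). The log2 fold change was 1.23 (SE 0.32) with an edgeR adjusted p of 0.000463. Without Rnmt cKO replicate 2 it was 0.95 (adjusted p = 0.0164). By mean CPM, Eomes ranked 9934 of the 12336 tested genes in controls and 8455 in Rnmt cKO cells.

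Tbx21, which encodes T-bet, the T-box factor of type 1 helper cells, stayed below the filter. It held 2 counts in each control, and Rnmt cKO 1, 2 and 3 held 2, 5 and 10 counts. Rnmt cKO 1 held as few as the controls, so the groups overlapped. The ratio of the group totals after scaling for library size was 2.41, with an exact 95% interval of 0.905 to 7.45. Intervals of count ratios cover counting error only. In the edgeR fit without a filter its adjusted p was 0.869, so a difference in Tbx21 was not detectable at this depth.

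Among the surface receptors, Il2rb and Cd44 moved in opposite directions. Il2rb encodes CD122, the beta chain that signals for IL-2 and IL-15, and lies on chromosome 15, 78479256 to 78495271, minus strand (mm10). Il2rb held 691, 831 and 694 counts in the control libraries, against 898, 1192 and 1344 in the Rnmt cKO libraries. Its CPM were 81.2, 82.9 and 76.7 in the control libraries, against 94.9, 100.6 and 120.5, and the gap between the groups was smaller than the SD of the Rnmt cKO group. The mean rose 1.31-fold, from 80.3 ± 3.25 to 105.3 ± 13.4 CPM (SD, n = 3 per group). The log2 fold change was 0.39 (SE 0.11) with an edgeR adjusted p of 0.00491. Without control replicate 3 it was 0.36 and no longer called (adjusted p = 0.0571).

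Cd44 encodes the hyaluronan receptor whose surface level the sort itself used. The gene lies on chromosome 2, 102811141 to 102901665, minus strand (mm10). Cd44 held 313, 377 and 483 counts in the control libraries, against 175, 271 and 226 in the Rnmt cKO libraries. Control 3 stood above the other controls, and every Rnmt cKO library was below every control in CPM. Control cells averaged 42.6 ± 9.32 CPM, and Rnmt cKO cells, at 20.5 ± 2.20 CPM, were 2.07-fold lower (SD, n = 3 per group). The log2 fold change was -1.05 (SE 0.19) with an edgeR adjusted p of 1.32e-08. Since both groups were gated as negative for CD44, this is a difference among cells that had passed that gate. How the gate was placed in each sort was not examined, and its part in the result was not tested.

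Cxcr3, the receptor for the interferon-induced chemokines CXCL9 and CXCL10, held 5, 5 and 8 counts in the control libraries, against 2, 8 and 3 in the Rnmt cKO libraries. The groups overlapped, and the ratio of scaled totals was 0.613 (exact 95% interval 0.276 to 1.32). The fit without a filter gave an edgeR adjusted p of 1.

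The effector products were near the limit of detection in both groups. Ifng, the type 1 cytokine, held 0 counts in 5 libraries and 1 count in Rnmt cKO 3. A library with 0 counts allows up to 3, which is 0.253 to 0.353 CPM over the 6 libraries, for counting error only. Ccl5, a chemokine stored as mRNA by memory CD8 cells, held 7, 6 and 5 counts in controls 1, 2 and 3 and 7 in each Rnmt cKO library. The libraries were alike and the ratio of scaled totals was 0.991 (exact 95% interval 0.503 to 1.97). Nkg7, a cytotoxic granule membrane protein, held 7, 8 and 12 counts in the control libraries, against 4, 15 and 11 in the Rnmt cKO libraries. Its lowest and highest libraries were both Rnmt cKO, and the ratio was 0.944 (exact 95% interval 0.542 to 1.65). Both had an adjusted p of 1 in the edgeR fit without a filter. S100a4, a calcium-binding protein of motile memory cells, held 2 counts in control 2, 2 in Rnmt cKO 2 and 0 in the other 4 libraries. No fold is given for Ifng or S100a4, since both groups were at or under the limit, and S100a4 overlaps another annotated locus.

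**Figure D2:**
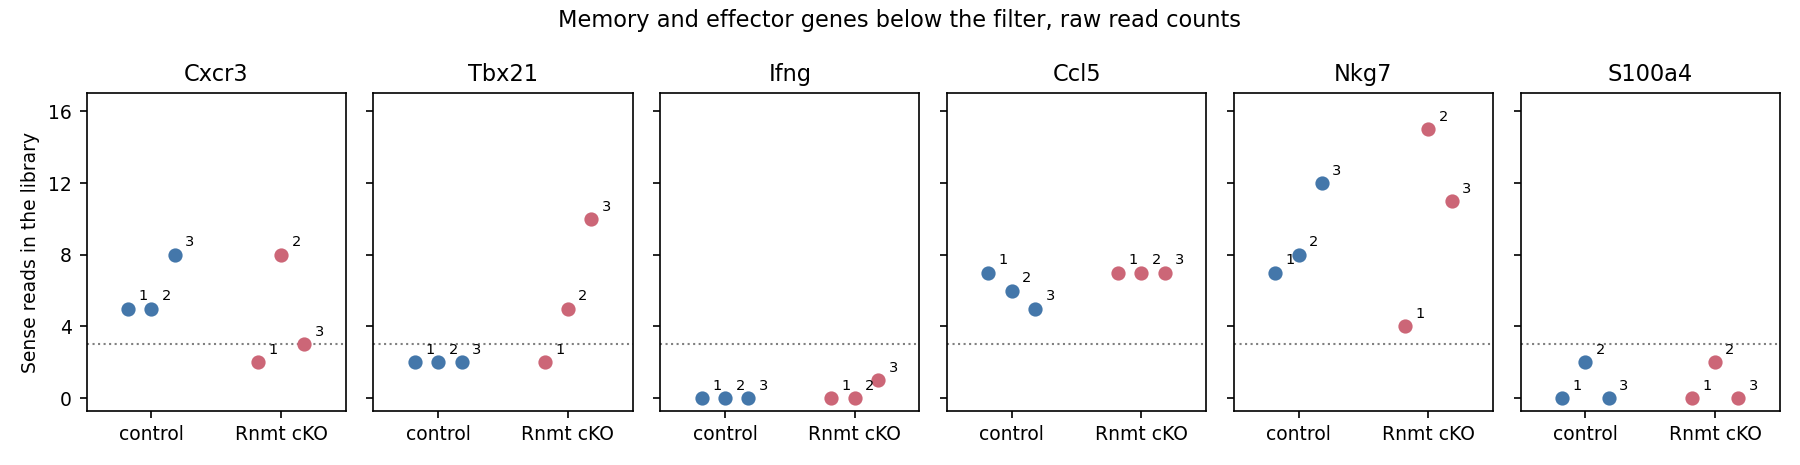
Sense reads per library (vertical axis, raw counts) of the 6 genes that stayed below the filter, with replicate numbers beside the points. The dotted line is 3 counts, the most that a count of 0 allows. Control and Rnmt cKO libraries overlap in every panel, and Tbx21 reaches 10 counts in Rnmt cKO 3.

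The genes can be compared with each other per kilobase of exon. In controls the mean levels were 18.7 CPM per kb for Il2rb, 10.4 for Id2 and 7.53 for Cd44, then 1.24 for Ccl5, 1.14 for Eomes and 1.11 for Nkg7. Cxcr3, S100a4, Tbx21 and Ifng were below 0.4 CPM per kb. In Rnmt cKO cells Il2rb was at 24.6, Id2 at 19.5, Cd44 at 3.63 and Eomes at 2.67 CPM per kb, so Eomes stood above Ccl5 (1.23) and Nkg7 (1.01). Neighbours among Ccl5, Eomes and Nkg7 in controls rest on few counts and no order among them is claimed.

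The 4 tested genes were also compared among libraries with a similar share of reads in no gene. Among the libraries with the low share (control 1, control 2 and Rnmt cKO 3) the log2 ratios were -0.87 for Cd44, 0.55 for Il2rb, 1.12 for Eomes and 0.96 for Id2. Among the other 3 libraries (control 3, Rnmt cKO 1 and Rnmt cKO 2) they were -1.37, 0.35, 1.16 and 0.96 in the same order. The groups did not overlap for any of the 4 genes, so the same direction in both sets was fixed in advance. With 1 library on a side in each set, these are values without a test.

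Ratios of read counts within a library do not depend on scaling between libraries. With 3 libraries against 3, an exact two-sided permutation test cannot go below p = 0.10. Of 7 ratios computed, 5 reached this smallest p, which is 0.14 after Benjamini-Hochberg adjustment, so none passed a threshold of 0.05. Id2 was compared with Id3, its relative that keeps T cells naïve, after the values had been seen. The ratio of Id2 to Id3 reads was 0.696, 0.716 and 0.753 in the control libraries, against 1.64, 1.41 and 1.17 in the Rnmt cKO libraries. All Rnmt cKO libraries held more Id2 than Id3 reads and all controls fewer (exact permutation p = 0.10, the smallest possible). Id3 itself had a log2 fold change of -0.02 (edgeR adjusted p = 0.983), a sign that turned with library size as the only scaling.

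The ratio of Il2rb to Il2ra, the alpha chain of the high-affinity IL-2 receptor, was 2.12, 1.68 and 1.32 in the control libraries, against 2.83, 2.85 and 4.0 in the Rnmt cKO libraries. The groups did not overlap (exact permutation p = 0.10). In CPM every Rnmt cKO library was above every control for Il2rb and below every control for Il2ra. The separation of their ratio and its p were therefore fixed in advance and add no support. The ratio of Il2rb to the common gamma chain Il2rg was 0.584 ± 0.027 in controls, against 0.577 ± 0.066 in Rnmt cKO cells (SD, n = 3 per group, exact permutation p = 0.90). Il2rb per Cd4 read was also close in both groups, at 0.120 ± 0.00538 and 0.123 ± 0.00891 (SD, n = 3 per group, exact permutation p = 0.70). Cd4 rose by a log2 fold change of 0.35 (edgeR adjusted p = 0.00491, but 0.0759 without control replicate 2).

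Id2 and Eomes were also higher per Cd4 read, with the ratio of Id2 to Cd4 at 0.0379 ± 0.00232 in controls, against 0.0558 ± 0.000972 in Rnmt cKO cells, and that of Eomes to Cd4 at 0.00629 ± 0.00126 and 0.0116 ± 0.00407 (SD, n = 3 per group). Groups did not overlap for either (exact permutation p = 0.10). Cd44 was lower per Cd4 read, with the ratio at 0.0638 ± 0.0148 in controls, against 0.0241 ± 0.00314 in Rnmt cKO cells (SD, n = 3 per group). Every Rnmt cKO library was below every control (exact permutation p = 0.10). This was also fixed in advance, since in CPM the groups did not overlap for Cd44, which was lower, or for Cd4, which was higher. The partners in these ratios were chosen with their values known.

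**Figure D3:**
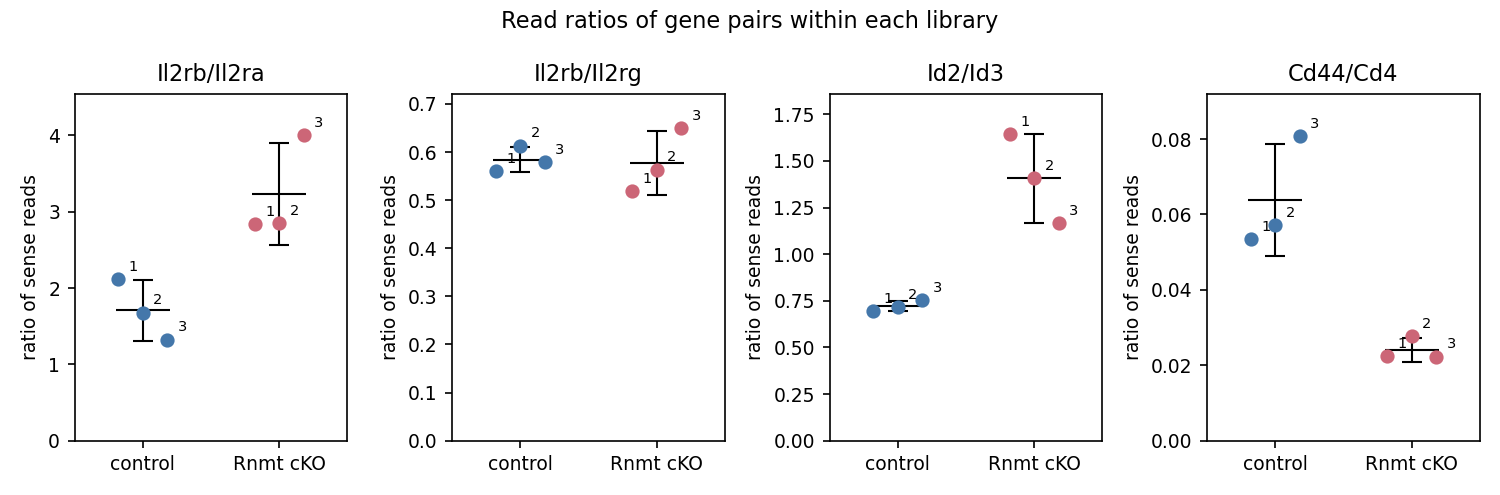
Ratio of sense reads of 2 genes within each library (vertical axes, linear from 0), with replicate numbers, means (long bars) and SD (whiskers). The groups do not overlap for Il2rb/Il2ra, Id2/Id3 and Cd44/Cd4, and overlap for Il2rb/Il2rg. For Il2rb/Il2ra and Cd44/Cd4 the separation was fixed in advance by that of the single genes.

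The other genes of each pathway were read from lists, with the 10 genes left out of the counts. The lists were chosen with results of these data known, so their counts are descriptions. The median log2 fold change over all tested genes was 0.01, with 8.0% of them called higher and 6.84% called lower.

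In the IL-2 and IL-15 receptor pathway, 11 of 13 genes were tested, 5 rose, 1 fell and the median log2 fold change was 0.30. Socs3, a feedback inhibitor of cytokine receptors, held 1396, 1635 and 1361 counts in the control libraries, against 4451, 5936 and 5993 in the Rnmt cKO libraries. It rose 3.16-fold, by a log2 fold change of 1.66 (SE 0.07, edgeR adjusted p = 6.95e-56). Jak3, the kinase on the common gamma chain, rose by 0.85 on the log2 scale (adjusted p = 3.55e-16), and Socs1 by 0.91 (adjusted p = 1.16e-11). The other 3 calls were named after their values were seen. They were Stat5a, which carries the IL-2 signal to the nucleus, at 0.52 (adjusted p = 2.74e-06), Il2rg at 0.41 (adjusted p = 0.000127) and Il2ra at -0.56 (adjusted p = 0.00314). The Il2ra call was lost without control replicate 3 (-0.42, adjusted p = 0.0557).

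Of the T-box and effector transcription factors, 14 of 16 were tested, 3 rose, none fell and the median was 0.20. Bhlhe40, which supports cytokine production by helper cells, rose by 1.42 on the log2 scale (edgeR adjusted p = 1.5e-06). Zeb2, a partner of T-bet in terminal effector cells, had a log2 fold change of 1.18 (adjusted p = 0.00704) on 10 to 12 counts in controls and 23 to 42 in Rnmt cKO libraries. Irf4, induced by T cell receptor signals, had 0.45 (adjusted p = 0.00586). The calls of Zeb2 and Irf4 were lost without control replicate 2 (adjusted p = 0.0538 and 0.0641) and without Rnmt cKO replicate 2 (adjusted p = 0.107 and 0.0784), which left 1 of the 3. The list of Id and E proteins also held Rbpj, the DNA-binding factor of the Notch pathway, and 5 of its 7 genes were tested. No Id or E protein other than Id2 was called. The only call of the list was that of Rbpj (log2 fold change 0.29, edgeR adjusted p = 0.0469). It held in 2 of 14 alternative settings, and it was lost when any 1 of controls 1, 2 and 3 or Rnmt cKO 1 and 2 was left out (adjusted p between 0.0582 and 0.292).

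In the interferon gamma pathway, 11 of 12 genes were tested, 4 rose, 1 fell and the median was 0.22. Jak2, which signals from the interferon gamma receptor, rose by 0.40 on the log2 scale (edgeR adjusted p = 0.000824). Il18r1, a chain of the IL-18 receptor, fell by 0.50 (adjusted p = 2.15e-05). Irf1, with a log2 fold change of 0.25 (adjusted p = 0.0446), and Il18rap, with 1.09 (adjusted p = 0.024), were named after their values were seen. Of the 4 rises, that of Jak2 alone was called in all 14 alternative settings. The number called higher was 2 without control replicate 1 and 1 when any of controls 2 and 3 or Rnmt cKO 1 and 2 was left out. The call of Irf1 was lost when any 1 library other than Rnmt cKO 3 was left out (adjusted p between 0.068 and 0.236). That of Il18rap was lost without control replicate 2 or 3 or Rnmt cKO replicate 1 or 2 (adjusted p between 0.0946 and 0.182).

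Of the 14 cytotoxic granule and killer receptor genes, 7 were tested, none rose, 4 fell and the median was -0.44. The other 7 were below the filter. Among them Gzmb, named after its values were seen, held 3, 2 and 0 counts in controls, against 7, 23 and 6 in Rnmt cKO libraries. For the rest of these untested genes the groups overlapped. Of the 3 tested genes that were not called, Gzmm and Srgn, named after their values were seen, had log2 fold changes of 0.24 (edgeR adjusted p = 0.736) and 0.16 (adjusted p = 0.414). Prf1, which encodes perforin, held 303, 344 and 265 counts in the control libraries, against 128, 147 and 187 in the Rnmt cKO libraries, and fell by 1.22 on the log2 scale (edgeR adjusted p = 1.76e-13). Fasl, the death ligand, fell by 1.09 (adjusted p = 9.75e-07), and Klrd1, the CD94 receptor chain, by 1.34 (adjusted p = 0.000992). Ctsw, a cathepsin of killer cells named after its values were seen, had -0.40 (adjusted p = 0.0129), a call lost without control replicate 2, Rnmt cKO replicate 1 or Rnmt cKO replicate 2 (adjusted p between 0.0706 and 0.181).

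Of the chemokines and receptors, 5 of 15 were tested, and 10 were below the filter like Cxcr3 and Ccl5. Ccr2 rose by 1.64 on the log2 scale (edgeR adjusted p = 0.00051) on 5 to 12 counts in controls and 21 to 49 in Rnmt cKO libraries, and Ccr4 fell by 1.09 (adjusted p = 0.00445). Of the CD44, S100 and cytoskeletal memory genes, 20 of 23 were tested, 2 rose, 1 fell and the median was 0.01. These counts and the median were close to those of all tested genes. Ly6c1, a surface protein of memory and interferon-exposed cells, fell by 1.37 (adjusted p = 1.83e-12), next to Cd44 at -1.05. Vim rose by 0.49 (adjusted p = 0.00134), and Anxa2 had 0.90 (adjusted p = 0.0129), a call lost without control replicate 2 or 3 or Rnmt cKO replicate 3 (adjusted p between 0.0661 and 0.114). Without Rnmt cKO replicate 3, 4 genes of this list were called lower in place of 1.

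All 12 naïve T cell genes were tested, 4 rose, 2 fell and the median was 0.11. Igfbp4 rose by 1.13 on the log2 scale (edgeR adjusted p = 2.17e-15), while Dapl1 fell by 1.83 (adjusted p = 5.04e-22) and Il7r, the IL-7 receptor on which naïve cells depend, fell by 0.96 (adjusted p = 2.44e-17).

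**Figure D4:**
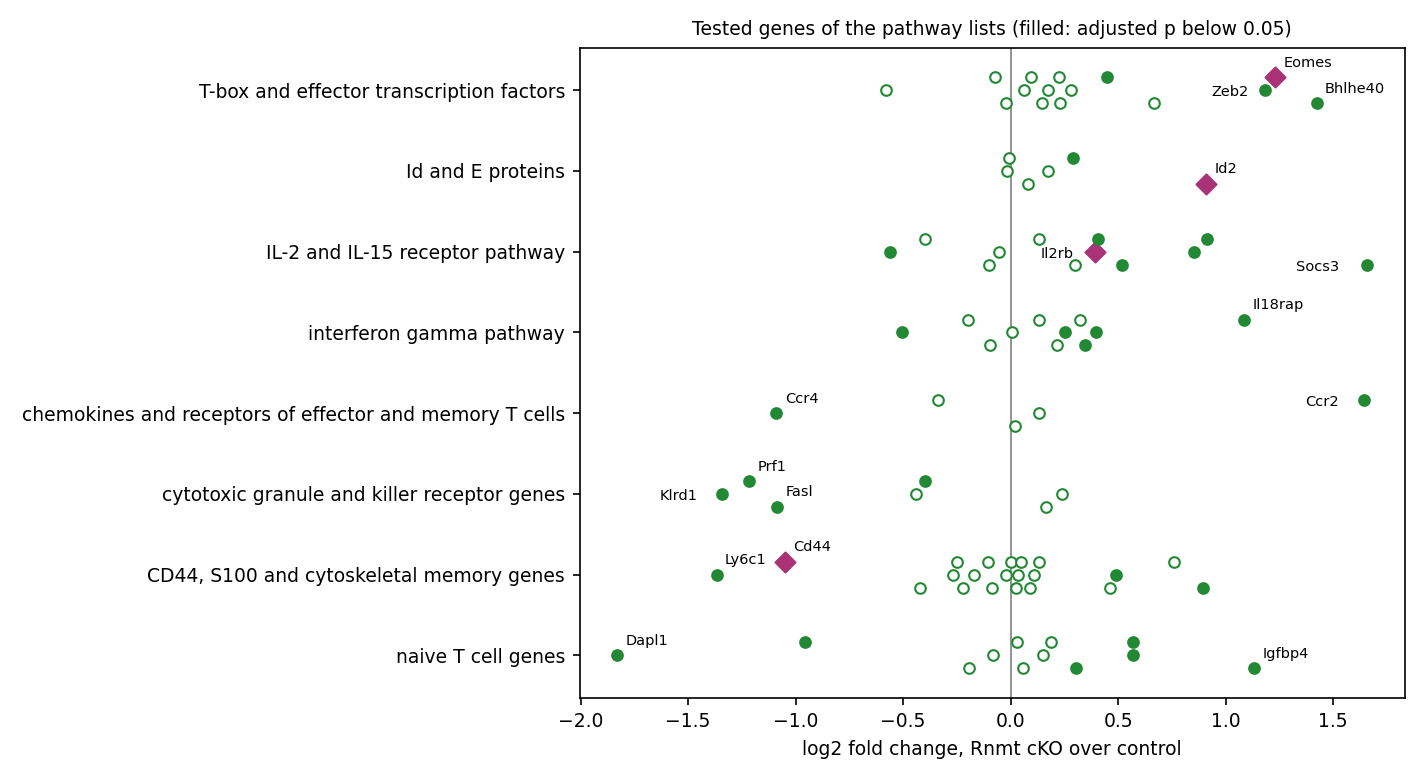
log2 fold change (Rnmt cKO over control, horizontal axis) of every tested gene in the 8 pathway lists (vertical axis, 1 band per list). Filled symbols have an edgeR adjusted p below 0.05, and diamonds are the 4 tested genes among the 10. Id2, Eomes and Il2rb lie right of 0 and Cd44 left of 0, and the called genes of the cytotoxic list all lie left of 0.

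Other cells that express these genes were followed with marker lists, each summed per library. The 11 NK cell and ILC1 markers, of a lineage rich in Eomes, Il2rb, Id2 and Nkg7, summed to 2.87 to 4.99 CPM in controls, against 4.12 to 6.07 CPM in Rnmt cKO libraries, and overlapped. Only 1 passed the filter and it was not called. Among these, the 6 defining NK genes together held 2 to 11 counts in controls and 7 to 15 in Rnmt cKO libraries. None of the 11 markers was at 0 in all 6 libraries. The 2 CD8 markers summed to 21.7 to 23.3 CPM in controls and 13.5 to 17.3 in Rnmt cKO libraries, lower in all 3. Both Cd8b1 (log2 fold change -0.58, edgeR adjusted p = 0.00288) and Cd8a (-0.87, adjusted p = 0.0482) were called lower, Cd8a in 2 of 13 alternative settings and Cd8b1 not without Rnmt cKO replicate 2 (adjusted p = 0.0505).

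The 7 NKT and gamma delta T cell markers summed to 18.0 to 19.0 CPM in Rnmt cKO libraries, against 11.6 to 13.4. Most of this difference was in the 2 genes tested, Trdc, with means of 7.98 CPM in controls and 12.3 in Rnmt cKO cells, and Blk, with 1.86 and 3.33 CPM, which is also on the B cell list. Trdc was the call (log2 fold change 0.62, edgeR adjusted p = 0.00821), lost without control replicate 2 or 3 or Rnmt cKO replicate 1 (adjusted p between 0.0542 and 0.0818). Tcrg-C1 had means of 1.28 CPM in controls and 0.765 in Rnmt cKO cells, with overlapping groups. Tcrg-C2, with means of 0.688 CPM in controls and 1.17 in Rnmt cKO cells, and Tcrg-C4, with 0.546 and 0.792, went the other way. Their groups overlapped too, and all of these gamma chain genes were below the filter. Zbtb16, the defining factor of NKT cells, held at most 1 count in any library. The 9 B cell markers summed to 59.7 to 96.1 CPM in Rnmt cKO libraries, against 44.5 to 53.5, with 5 of 9 called higher and Ms4a1 at a log2 fold change of 0.75 (adjusted p = 0.00409). None of the 5 was called without Rnmt cKO replicate 2, and 1 without control replicate 1 or 3. The 13 myeloid and dendritic markers summed to 38.8 to 60.2 CPM against 27.9 to 34.8. Of 7 tested genes, 3 were called higher, namely S100a8, S100a9 and Lyz2 (log2 fold change 1.60, edgeR adjusted p = 0.00123). Lyz2 was the 1 call left without Rnmt cKO replicate 1 or 2. S100a8 and S100a9 of neutrophils, relatives of S100a4, together held 0.118 to 0.599 CPM in controls, against 4.33 to 14.8 CPM in Rnmt cKO libraries, and entered the test through the latter, so that they were not tested when any Rnmt cKO library was left out. For the same reason S100a8 and S100a9 could not have been called lower, and their calls carry no weight in the count. Rnmt cKO 2 was highest for B cell and myeloid markers, for the NK cell and ILC1 markers (6.07 CPM, with control 2 next at 4.99) and also for Eomes. It was not highest for Il2rb or Id2. The part of NK, CD8, NKT, gamma delta, B and myeloid cells in the results for Eomes, Id2 and Il2rb was not tested.

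The 10 regulatory T cell markers, of cells that carry CD44, Il2rb and Il2ra, summed to 327 to 340 CPM in Rnmt cKO libraries, against 362 to 397 CPM, with 3 called lower and 1 higher. Foxp3, their defining factor, fell by 0.91 on the log2 scale (edgeR adjusted p = 1.49e-08). Il2ra, which is itself on this list, and Capg (-0.69, adjusted p = 0.00552) were also called lower. Tnfrsf4 rose by 0.64 (adjusted p = 3.91e-06). The other 6 were not called, among them Ctla4 at -0.13 (adjusted p = 0.638) and Tnfrsf18 at -0.01 (adjusted p = 0.986). The part of regulatory T cells in the results for Cd44, Il2ra and Il2rb was not tested.

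**Figure D5:**
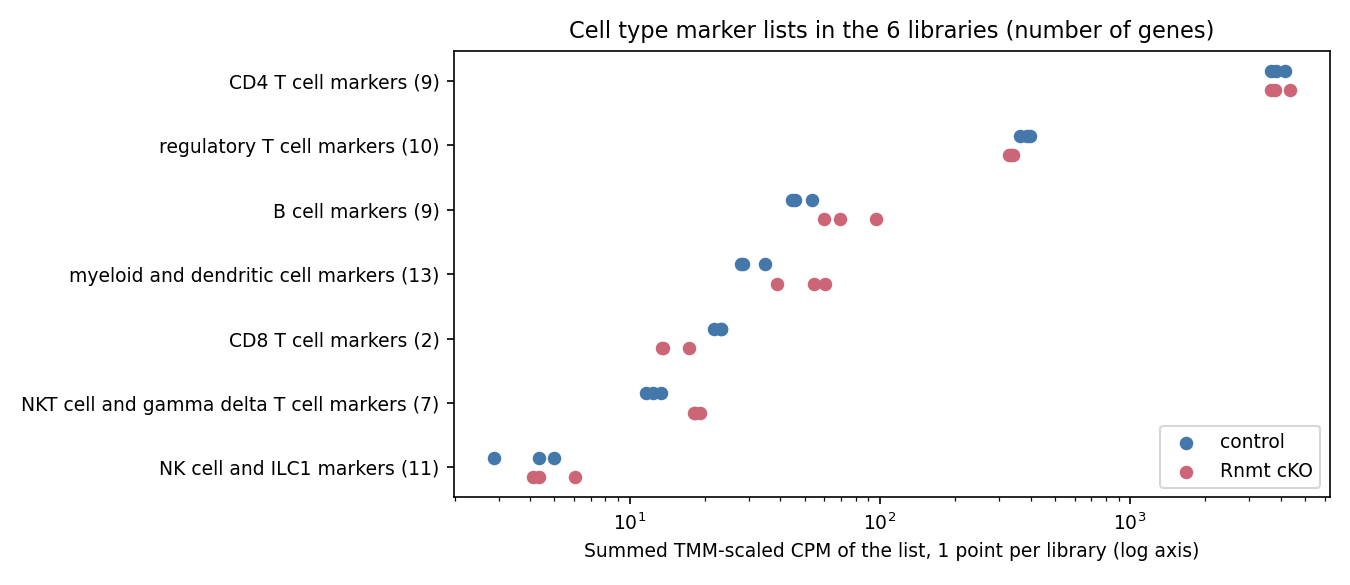
Summed TMM-scaled CPM of 7 cell type marker lists (horizontal log axis), with 1 point per library. Control and Rnmt cKO libraries overlap for the CD4 T cell and NK cell lists. The sums of the B cell, myeloid, and NKT and gamma delta lists are higher in Rnmt cKO libraries, and those of the CD8 and regulatory T cell lists are lower.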

How the data were processed

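RNA from 3 control and 3 Rnmt cKO samples was sequenced as paired-end reads. Per the labels and the study's methods, the authors aligned reads to mm10 with STAR 2.5.2b, counted over GENCODE vM12 (basic), and deposited raw counts per gene for either strand and for each strand, without normalization. Lines for unmapped, multimapping, ambiguous or unassigned reads were kept out of library sizes. The authors also deposited a normalized signal per library beside the log2 fold change, p-value and adjusted p-value of their own edgeR comparison. The comparison columns were not used, and the signal served only to find the count column it was made from, which is 1 constant per library times the sense counts for 100% of its genes. Those sense counts were analysed.

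Genes past 1 CPM in at least 3 samples were tested with the edgeR 4.0.16 (R 4.3.3) exact test on tagwise dispersions after TMM scaling, with Benjamini-Hochberg adjustment over 12336 genes and a threshold of 0.05, following the study's methods. Standard errors come from log2 CPM with a prior count of 2, and intervals of count ratios are exact binomial intervals at 95%. No library was a repeat of another, since chi-square values within a group were 3.85 to 25.2 for each degree of freedom. Gene depth, 8873413 to 11277764 counts per library, leaves genes of few counts imprecise. Positions come from GENCODE vM21 on the same build. Alternatives were another scaling, test, strand setting and filter, a replicate block, and leaving out each library. The code was tested on simulated data.

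All 10 genes are named. From other lists, at most the 3 genes with the smallest adjusted p past the threshold were named by rule, with Rnmt to check the labels, and others are said to have been chosen after their values were seen. Zbtb16, Tcrg-C1, Tcrg-C2, Tcrg-C4, Blk, Id3 and Cd4, and the lower-ranked markers, were also chosen that way. Values of some genes named by the rule, or compared with the 10 genes, are left out of the text. The 10 genes and all lists were chosen with earlier results of these data known. Replicate numbers are not stated to mark a shared litter or day.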

Additional observations from a re-analysis of the deposited data

How the results depend on the processing

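Of the 10 genes, 1 was called lower in all 14 alternative settings, and this was Cd44, with a log2 fold change between -1.14 and -0.85. Id2 was also called in all 14 (0.84 to 1.03). Il2rb was called in 12 of 14 (0.27 to 0.51) and Eomes in 12 of the 13 in which it was tested (0.95 to 1.42), since it could not be tested above 10 CPM. Samples of the same replicate number did not deviate together (correlations of -0.21, -0.02 and -0.35 for numbers 1, 2 and 3), and no library correlated best with its own number. With the replicate number as a block, 1 of the 10 genes was called higher, Id2, with Il2rb at 0.39 (edgeR adjusted p = 0.0903) and Eomes at 1.20 (adjusted p = 0.0674), and calls over all genes dropped from 987 higher and 844 lower to 431 and 276. Library size as the only scaling gave 1938 higher and 535 lower and a median of 0.14. Calls over all genes also moved by more than 1.5 times without control replicate 2 (656 higher, 560 lower), without Rnmt cKO replicate 2 (643 and 547), without control replicate 1 (559 lower) and without Rnmt cKO replicate 3 (1285 lower). Signs turned for Ccl5, Nkg7 and Id3, none of which was called. With library size only, Ccl5 became 0.11, Nkg7 0.012 and Id3 0.10, and Ccl5 was 0.056 with counts of both strands and 0.000465 with the block. Leaving out 1 library gave ranges of -0.12 to 0.16 for Ccl5, -0.44 to 0.21 for Nkg7 and -0.24 to 0.11 for Id3. The cause of these turns was not tested. Depth limits Cxcr3, Tbx21, Ifng, Ccl5, Nkg7 and S100a4, for which only large differences could have been seen.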

Other observations

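Of the 45 other genes of the lists that stayed below the filter and held a count, the groups did not overlap for 8, which are named here for that reason after their values were seen. Of these 45, 13.3% were higher in every Rnmt cKO library and 4.44% lower, where the shares were 3.02% and 3.32% of all 14950 genes below the filter with a count, many of which hold too few counts to separate the groups. Il12rb2, the IL-12 receptor chain of type 1 helper cells, held 1, 0 and 0 counts in controls 1, 2 and 3, against 7, 8 and 4 in the Rnmt cKO libraries. Gzmb, which encodes granzyme B, held 3, 2 and 0 counts in controls, against 7, 23 and 6. Anxa1, an annexin of memory and myeloid cells, held 1, 2 and 0 counts in controls, against 4, 21 and 11. Cxcr6, a chemokine receptor of effector and memory T cells, was lower, with 7, 9 and 7 counts in controls, against 2, 8 and 1. S100a6 held 6 counts in each control, against 8, 16 and 10, and the dendritic cell gene Itgax 5, 5 and 0, against 12, 22 and 8. Klre1 held at most 3 counts in any library and was higher, and Clec9a at most 2 and was lower. In the edgeR fit without a filter the adjusted p was 0.00984 for Il12rb2 and 0.00471 for Anxa1. It was 0.0542 for Gzmb, 0.0822 for Itgax, 0.408 for Cxcr6, 0.881 for S100a6, 0.963 for Klre1 and 1 for Clec9a. Rnmt cKO 2 held the most counts of Gzmb, Anxa1, S100a6 and Itgax, as it did of B cell, myeloid and NK cell markers, and the part of such cells was not tested.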
